A study of Mus musculus with 4 samples.

Results

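Basophils, mast cells and eosinophils are granulocytes, and 10 genes that are widely used to recognise them were followed through RNA sequencing of early B cells of mouse bone marrow. The genes were Hdc, Cpa3, Mcpt8, Prss34, Fcer1a, Ms4a2, Gata2, Prg2, Epx and Csf2rb, taken by symbol from the 55573 gene identifiers of the deposited tables, and all 10 were found. The data come from 2 libraries labelled ADAR1 KO (KO 1, KO 2) and 2 wild type libraries (WT 1, WT 2). Per the labels, every library came from C57BL/6 mice aged 8 to 12 weeks and from marrow B cells sorted as Fr.C+C', which in Hardy's nomenclature covers the step between pro-B and small pre-B cells. ADAR1 edits adenosine to inosine in double-stranded RNA. The sources used here give neither the allele or Cre line behind the KO label nor whether replicates were different mice. The p-values therefore reflect only how these libraries spread, and that spread may be technical.

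As background, basophils and mast cells carry the high-affinity IgE receptor, whose alpha chain binds IgE and whose beta chain amplifies the signal of the shared gamma chain. Crosslinking of this receptor releases granules loaded with histamine and proteases. Eosinophils instead store basic proteins and a peroxidase. These lineages arise in the marrow from GATA-dependent progenitors and respond to interleukin 3, interleukin 5 and GM-CSF, whose receptors share a beta chain.

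The libraries held 15123023 to 16416894 fragments assigned to genes, and no pair of replicates was a repeat of 1 library (counts differed beyond sampling, with chi-square values of 54.7 per degree of freedom in the KO pair and 7.74 in the WT pair). Adar stood at 15.19 and 16.79 FPKM in the KO libraries, against 15.04 and 14.62 FPKM in the WT libraries, and a value over the whole gene does not check a knockout label. Genes of the sorted B lineage and of other marrow cells were both present. A list of 17 neutrophil markers summed to 4.16% and 8.04% of all fragments in the KO libraries, against 3.06% and 2.92% in the WT libraries. The 21 B lineage markers held 0.984% and 0.533% of fragments in the KO libraries, against 1.11% and 1.22% in the WT libraries. KO 2 thus stood apart from the other libraries in both lists.

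The 10 genes did not behave as a single set. Hdc and Csf2rb stood higher in both KO libraries than in both WT libraries, at about 2.40 and 2.34 times the WT mean. The basophil proteases Mcpt8, Prss34 and Cpa3 and the transcription factor gene Gata2 had KO means between 0.835 and 0.979 times the WT means, with overlapping libraries. The IgE receptor genes Fcer1a and Ms4a2 had KO means of 1.40 and 1.20 times the WT means, and the eosinophil genes Prg2 and Epx of 1.09 and 1.43 times. None of these differences passed the test over all genes.

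All 10 genes passed the filter on low values, which asked for 1 FPKM on average in KO or in WT. In limma on log2(FPKM + 1), 0 of the 10 were past an adjusted p of 0.05, where 0.203% of the 13281 genes tested were. All 27 genes past it were lower in KO, and 0 were higher. At an unadjusted p under 0.05 there were 2, Hdc and Csf2rb, against 12.5% of all genes tested, and limma-voom on estimated fragments also called 0. Both KO libraries lay above both WT libraries for Hdc, Csf2rb and Fcer1a, 3 of 10, where 19.7% of all genes tested did. Both KO libraries lay below both WT libraries for 0 of 10, where 31.7% of all genes tested did. The log2 change was positive for 6 of 10, with a median of 0.18, where 38.3% of all genes tested were positive with a median of -0.09. Leaving out KO 1 changed the calls: Hdc and Csf2rb then passed, as did 15 of the 39 other named genes that were tested (among them Csf2ra, Csf2rb2, Pirb, Cd33, Ctsg, Serpinb1a, Alox5ap, Alox5, Cebpb, Spi1, Nfe2, Mpo, Siglecf and Cebpe), in a setting that called 948 genes, 7.10% of those tested. Leaving out KO 2 called 0 genes in limma (1969 at an unadjusted p under 0.05). In bulk RNA, fewer cells of a type and less RNA per cell cannot be told apart.

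**Figure D1:**
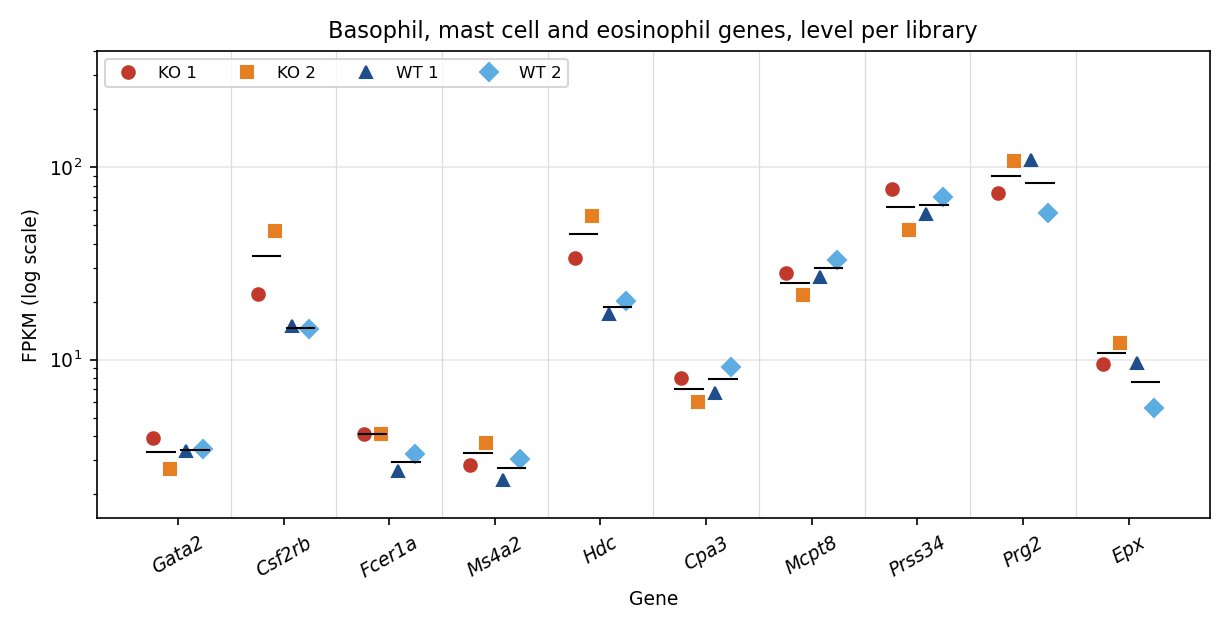
FPKM (log axis) of each of the 10 genes in every library, with KO libraries left of WT libraries and a bar at each group's mean of 2 libraries. Csf2rb and Hdc separate the groups most widely, at 21.97 to 55.86 FPKM in the KO libraries against 14.35 to 20.06 FPKM in the WT libraries, whereas the groups overlap for Mcpt8, Prss34, Cpa3 and Prg2.

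**Figure D2:**
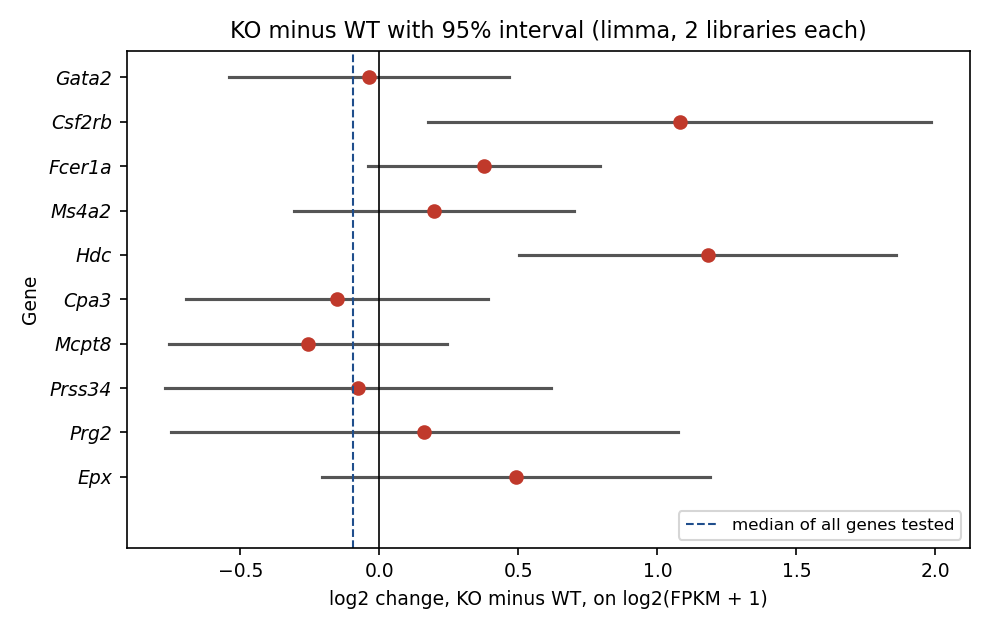
Log2 change (KO minus WT) of each gene on the log2(FPKM + 1) scale, as a point with its 95% interval from limma, 2 libraries per group. The intervals of Hdc (0.50 to 1.86) and Csf2rb (0.17 to 1.99) lie above 0 before adjustment, and the other 8 include 0. The dashed line is the median of all genes tested, -0.09.

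Per unit of exon length, the levels spanned a wide range. Prg2 was the most abundant on average, at 86.5 ± 25.2 FPKM (SD over all 4 libraries), followed by Prss34 at 62.5 ± 13.2, Hdc at 31.7 ± 17.6, Mcpt8 at 27.3 ± 4.65 and Csf2rb at 24.5 ± 15.2 FPKM. Neighbours among these 5 had overlapping ranges, so their order is not fixed. Epx at 9.24 ± 2.73 and Cpa3 at 7.48 ± 1.37 FPKM formed a middle pair whose ranges overlapped each other but not those of Csf2rb above or of Fcer1a below. Fcer1a at 3.53 ± 0.712, Gata2 at 3.36 ± 0.497 and Ms4a2 at 2.998 ± 0.544 FPKM came last and overlapped. Prss34 lay between percentile 92.3 and percentile 95.5 of all genes tested in every library, although the sort was for B cells. Taken over the 10 genes, 9974 and 14161 fragments were assigned in the KO libraries, against 7428 and 7526 in the WT libraries.

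Gata2 encodes a zinc finger factor required in basophil and mast cell precursors and in blood stem cells. The gene (ENSMUSG00000015053; coordinates here and for the other genes are GRCm38, chromosome 6, 88193891 to 88207032) was measured at 3.93 and 2.72 FPKM in the KO libraries, against 3.35 and 3.44 FPKM in the WT libraries. KO 1 was the highest and KO 2 the lowest of all libraries, so the WT pair lay between them. The means were 3.33 ± 0.856 FPKM in KO and 3.40 ± 0.0636 FPKM in WT (SD, n = 2 each), and the log2 change was -0.04 ± 0.20 (SE, 95% interval -0.54 to 0.47, adjusted p = 0.932, limma). The change was 0.17 without KO 2, and also above 0 with median centring or quantile normalization (0.031 and 0.035). Gata1, the erythroid and eosinophil relative of Gata2, stood at 6.68 and 10.60 FPKM in the KO libraries, against 18.51 and 12.07 FPKM in the WT libraries (log2 change -0.76 ± 0.29, adjusted p = 0.395, limma). The 12 erythroid markers, Gata1 among them, all had negative log2 changes, where 38.3% of all genes tested were positive. Both KO libraries lay below both WT libraries for 9 of the 12, where 31.7% of all genes tested did. In limma 0 of the 12 passed (4 at an unadjusted p under 0.05, against 12.5% of all genes tested).

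Because GATA factors act on genes of these lineages, the start regions of the genes, Gata2 included, were searched on both strands for the GATA motif spelled AGATAA or AGATAG, or with a leading T in place of the leading A (TGATAA or TGATAG). RefSeq windows of 300 bases (GRCm38.p6, 250 before to 50 after the annotated start) were at hand for 8 of the 10 genes. They made 9 windows, as Gata2 has more than 1 annotated start. A match was held by 5 of the 8 genes, in 5 of the 9 windows. Of all 32851 windows, 29.8% did. The 4 genes with a match within 100 bases of the start are shown, written 5′ to 3′ along the gene's strand with matches in capitals (a match on the other strand reads TTATCT here). They are Cpa3 (chr3:20242132-20242431, minus strand), Prss34 (chr17:25298144-25298443, plus strand), Fcer1a (chr1:173227180-173227479, minus strand) and Ms4a2 (chr19:11623670-11623969, minus strand).
Cpa3: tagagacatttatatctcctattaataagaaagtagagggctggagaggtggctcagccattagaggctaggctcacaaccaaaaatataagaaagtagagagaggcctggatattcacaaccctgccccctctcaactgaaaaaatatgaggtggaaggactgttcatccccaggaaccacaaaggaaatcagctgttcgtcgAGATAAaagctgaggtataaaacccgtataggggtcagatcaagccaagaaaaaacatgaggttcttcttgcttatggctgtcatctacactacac
Prss34: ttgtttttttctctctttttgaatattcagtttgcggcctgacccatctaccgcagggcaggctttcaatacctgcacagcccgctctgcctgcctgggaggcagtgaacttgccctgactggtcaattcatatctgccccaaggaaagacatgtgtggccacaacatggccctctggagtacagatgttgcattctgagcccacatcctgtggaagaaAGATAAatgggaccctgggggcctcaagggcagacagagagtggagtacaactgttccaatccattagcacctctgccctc
Fcer1a: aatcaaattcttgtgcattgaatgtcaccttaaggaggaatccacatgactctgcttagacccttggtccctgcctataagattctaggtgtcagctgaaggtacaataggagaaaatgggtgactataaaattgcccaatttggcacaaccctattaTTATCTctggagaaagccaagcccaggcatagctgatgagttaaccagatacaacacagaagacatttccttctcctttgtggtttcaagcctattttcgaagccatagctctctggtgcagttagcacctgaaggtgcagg
Ms4a2: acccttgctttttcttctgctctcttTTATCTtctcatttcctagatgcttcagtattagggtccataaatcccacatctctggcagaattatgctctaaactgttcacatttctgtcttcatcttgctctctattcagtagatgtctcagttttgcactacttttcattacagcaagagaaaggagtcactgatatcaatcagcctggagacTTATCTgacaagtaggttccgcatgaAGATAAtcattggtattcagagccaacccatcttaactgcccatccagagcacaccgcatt
The matches began 46 bases before the start in Cpa3, 31 before it in Prss34 and 92 before it in Fcer1a. Ms4a2 held 3 matches, of which those at 37 and 11 bases before the start stand on opposite strands, and 1.76% of all windows held 3 or more. Hdc held 1 match, 221 bases before the start. Mcpt8, Gata2 (at both of its annotated starts) and Epx had none of these letters in their windows, and no matches overlapped. A match of 6 letters is a description of the sequence, and no binding was measured here.

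Csf2rb encodes the beta chain shared by the receptors for interleukin 3, interleukin 5 and GM-CSF, and outside these granulocytes it is used by neutrophils and monocytes. The gene (ENSMUSG00000071713, chromosome 15, 78325752 to 78353847) measured 21.97 and 46.63 FPKM in the KO libraries, against 14.94 and 14.35 FPKM in the WT libraries. The KO libraries lay above both WT libraries and were 2.12-fold apart from each other, whereas the WT libraries were close. Means were 34.3 ± 17.4 FPKM in KO and 14.6 ± 0.417 FPKM in WT (SD, n = 2 each), from at least 1714 fragments per library. The log2 change of 1.08 ± 0.35 (SE) did not pass (adjusted p = 0.372, limma). It passed without KO 1 (log2 change 1.61, adjusted p = 0.0426) and was 0.55 without KO 2 (adjusted p = 0.252). Mir7676-2 lies within the gene on the same strand. Csf2rb2, the neighbouring paralogue whose product serves interleukin 3 in mice, is close enough in sequence that reads may be split between the pair. It stood at 11.48 and 22.04 FPKM in the KO libraries, against 8.66 and 7.88 FPKM in the WT libraries (log2 change 0.87 ± 0.31, adjusted p = 0.381, limma), and the ratio of Csf2rb to Csf2rb2 was 1.91 and 2.12 in the KO libraries, against 1.73 and 1.82 in the WT libraries.

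The chains that pair with the beta chain did not share one pattern. Csf2ra, the GM-CSF receptor alpha chain of myeloid cells, stood at 87.95 and 132.82 FPKM in the KO libraries, against 61.76 and 57.84 FPKM in the WT libraries. Il3ra, the interleukin 3 receptor alpha chain of basophils, stood at 9.74 and 7.58 FPKM in the KO libraries, against 7.12 and 7.00 FPKM in the WT libraries. Il5ra, the alpha chain of eosinophils and some B cells, was low, at 0.85 and 0.63 FPKM in the KO libraries, against 1.43 and 1.40 FPKM in the WT libraries. Of the 12 genes in this list, Il5ra was the 1 with both KO libraries below both WT libraries. For all genes tested that share was 31.7%. Among these 12 receptor and kinase genes, all tested, 0 passed in limma (3 at unadjusted p under 0.05, against 12.5% of all genes tested). The median log2 change was 0.23, and 8 were positive, where 38.3% of all genes tested were. Both KO libraries lay above both WT libraries for 7, where 19.7% of all genes tested did. Socs3, a feedback inhibitor of cytokine receptors, had the smallest p of the list, at 14.28 and 17.84 FPKM in the KO libraries, against 3.94 and 7.27 FPKM in the WT libraries (log2 change 1.41 ± 0.28, adjusted p = 0.293, limma).

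Fcer1a encodes the IgE-binding alpha chain and marks basophils and mast cells in mice. The gene (ENSMUSG00000005339, chromosome 1, 173221284 to 173227214) measured 4.11 FPKM in both KO libraries, against 2.66 and 3.23 FPKM in the WT libraries. Both KO libraries lay above both WT libraries, but the values rest on 65 and 62 fragments in the KO libraries, against 42 and 53 in the WT libraries. The WT mean was 2.95 ± 0.403 FPKM (SD, n = 2), and the log2 change was 0.38 ± 0.16 (SE, 95% interval -0.04 to 0.79, adjusted p = 0.433, limma). Ms4a2, the signal-amplifying beta chain (ENSMUSG00000024680, chromosome 19, 11615523 to 11623719), measured 2.85 and 3.69 FPKM in the KO libraries, against 2.38 and 3.07 FPKM in the WT libraries. KO 1 lay between the WT libraries, so the groups overlapped, and the log2 change was 0.20 ± 0.20 (95% interval -0.31 to 0.70, adjusted p = 0.643, limma). For Ms4a2 it was 0.054 without KO 2 and 0.34 without KO 1.

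The gamma chain gene Fcer1g, which many myeloid cells use for other Fc receptors, was far more abundant than the chains specific to IgE. Its level was 168.01 and 291.66 FPKM in the KO libraries, against 141.62 and 114.02 FPKM in the WT libraries (log2 change 0.80 ± 0.31, adjusted p = 0.397, limma). Of 16 tested genes that carry the receptor's signal, 0 passed in limma (3 at unadjusted p under 0.05, against 12.5% of all genes tested). The median log2 change was 0.08, and 11 were positive, where 38.3% of all genes tested were. Orai1, the pore of the calcium channel that opens on store release, stood at 18.71 and 25.18 FPKM in the KO libraries, against 14.04 and 11.12 FPKM in the WT libraries. Btk, a kinase used by B cells and mast cells alike, lay the other way, at 40.10 and 41.49 FPKM in the KO libraries, against 47.45 and 51.98 FPKM in the WT libraries.

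Hdc encodes histidine decarboxylase, the enzyme that makes histamine, and in marrow it is also active in immature neutrophils and other myeloid precursors. The gene (ENSMUSG00000027360, chromosome 2, 126593667 to 126619299) measured 33.76 and 55.86 FPKM in the KO libraries, against 17.25 and 20.06 FPKM in the WT libraries. The groups did not overlap, and the gap between KO 1 and WT 2 was larger than the gap between the WT libraries. Means were 44.8 ± 15.6 FPKM in KO and 18.7 ± 1.99 FPKM in WT (SD, n = 2 each), with 3417 and 5397 fragments in the KO libraries, against 1742 and 2104 in the WT libraries. Its log2 change of 1.18 ± 0.27 (SE, 95% interval 0.50 to 1.86) had the smallest p of the 10 genes, with an adjusted p of 0.296 (limma). It passed without KO 1 (log2 change 1.54, adjusted p = 0.0426), a setting in which KO 2 alone stands for the group and is assumed to vary as the WT libraries do. Without KO 2 the change was 0.83 (adjusted p = 0.252).

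Like Hdc and Csf2rb, the summed level of the neutrophil list was higher in both KO libraries than in both WT libraries, and highest in KO 2. Within the WT pair, Hdc was higher in WT 2 and that sum in WT 1. All 17 neutrophil list markers were tested, and 0 passed in limma (10 at unadjusted p under 0.05, against 12.5% of all genes tested). All 17 were positive, where 38.3% of all genes tested were. Both KO libraries lay above both WT libraries for 15, where 19.7% of all genes tested did. Their summed level was 40728 and 81822 FPKM in the KO libraries, against 30973 and 29193 FPKM in the WT libraries. Per 1000 FPKM of that sum, Hdc stood at 0.829 and 0.683 FPKM in the KO libraries, against 0.557 and 0.687 FPKM in the WT libraries, so the groups overlapped on this scale. Csf2rb stood at 0.539 and 0.570 FPKM per 1000 in the KO libraries, against 0.482 and 0.492 in the WT libraries, without overlap. Mcpt8 showed the opposite order, at 0.691 and 0.264 FPKM per 1000 in the KO libraries, against 0.862 and 1.13 in the WT libraries. The groups overlapped for Mcpt8 itself and the sum was higher in both KO libraries. A gene at an equal level in both groups would also show this order, so it does not describe a change of Mcpt8. Per 1000 FPKM of the B lineage sum, Mcpt8 stood at 7.33 and 10.3 FPKM in KO, against 5.87 and 6.63 in WT. That sum was lower in both KO libraries, so this reverse order does not describe a change of Mcpt8 either. An early granulocyte and monocyte precursor list of 12 genes, Hdc among them, summed to 1164 and 3066 FPKM in the KO libraries, against 1164 and 904.0 FPKM in the WT libraries. For 2 against 2 libraries the smallest two-sided p of an exact permutation test is 0.333, so none of the 11 ratios formed was tested. Not all of these ratios are printed here. The part of neutrophils in the levels of Hdc and Csf2rb was not tested.

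**Figure D3:**
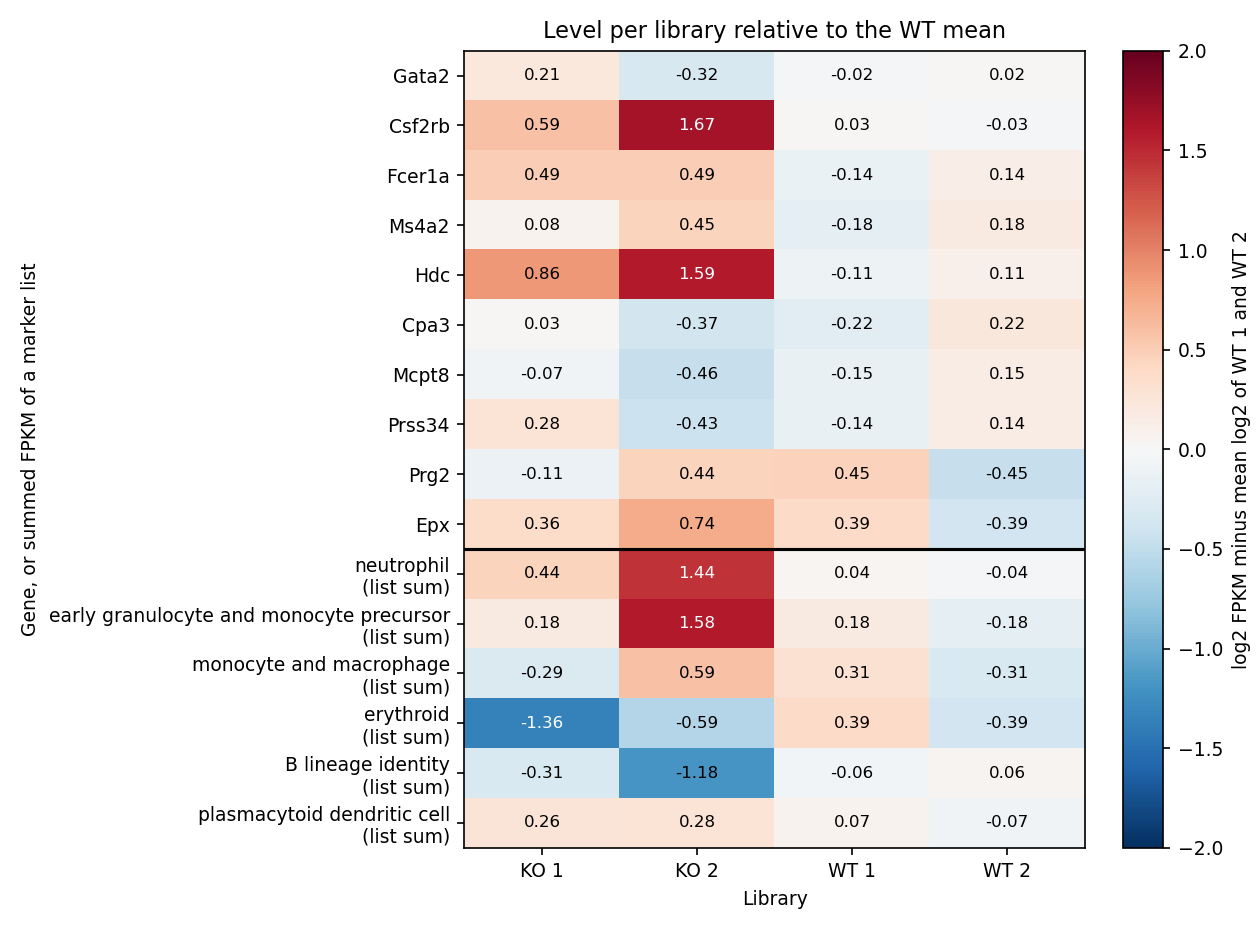
Level of each gene, and of the summed FPKM of 6 marker lists, in each library as log2 FPKM minus the mean log2 of WT 1 and WT 2 (columns run KO 1, KO 2, WT 1, WT 2, with red above and blue below the WT mean). Csf2rb (1.67) and Hdc (1.59) in KO 2 stand near the neutrophil sum (1.44), whereas Mcpt8 (-0.46), Prss34 (-0.43) and Cpa3 (-0.37) lie below the WT mean there, as do the erythroid (-0.59) and B lineage (-1.18) sums. In KO 1, Prss34 (0.28) and Cpa3 (0.027) lie above it and both of those sums below (-1.36 and -0.31). Hdc stands at 0.86 and Csf2rb at 0.59 in KO 1, against 0.44 for the neutrophil sum.

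Mcpt8 and Prss34 encode serine proteases that in mice are made chiefly by basophils, and Cpa3 a carboxypeptidase of basophil and mast cell granules. Mcpt8 (ENSMUSG00000022157, chromosome 14, 56082166 to 56085273) measured 28.15 and 21.60 FPKM in the KO libraries, against 26.70 and 32.90 FPKM in the WT libraries. KO 1 lay between the WT libraries and KO 2 below both, and the log2 change was -0.26 ± 0.20 (SE, 95% interval -0.76 to 0.24, adjusted p = 0.563, limma). For Mcpt8 it was -0.072 without KO 2 and -0.44 without KO 1. Prss34 (ENSMUSG00000056399, chromosome 17, 25298394 to 25300165) measured 76.48 and 46.77 FPKM in the KO libraries, against 57.21 and 69.70 FPKM in the WT libraries. Here KO 1 was the highest library and KO 2 the lowest, with means of 61.6 ± 21.0 FPKM in KO and 63.5 ± 8.83 FPKM in WT (SD, n = 2 each). Its log2 change was -0.08 ± 0.27 (95% interval -0.77 to 0.62, adjusted p = 0.896, limma), and 0.27 without KO 2 or 0.06 without WT 2. Cpa3 (ENSMUSG00000001865, chromosome 3, 20215620 to 20242181) measured 7.99 and 6.06 FPKM in the KO libraries, against 6.72 and 9.15 FPKM in the WT libraries. The groups overlapped, the log2 change was -0.15 ± 0.21 (95% interval -0.69 to 0.39, adjusted p = 0.728, limma), and it was 0.02 without KO 2 and 0.05 without WT 2. A microRNA gene on the same strand lies within Cpa3 (Mir7007) and within Mcpt8 (Mir6949).

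Among the proteases, the ratio of Prss34 to Mcpt8 was highest in KO 1, and that of Cpa3 to Mcpt8 varied less. Prss34 stood at 2.72 and 2.17 times Mcpt8 in the KO libraries, against 2.14 and 2.12 times in the WT libraries. Cpa3 stood at 0.284 and 0.281 times Mcpt8 in the KO libraries, against 0.252 and 0.278 times in the WT libraries. The ratio of Hdc to Mcpt8 spread far more, at 1.20 and 2.59 in the KO libraries, against 0.646 and 0.610 in the WT libraries. KO 2 stood below KO 1 in each of the 3 proteases and in Gata2, by factors of 0.612 to 0.767. The IgE receptor genes did not share this, as Fcer1a was equal in KO 1 and KO 2 and Ms4a2 rose by a factor of 1.29. B lineage markers summed to 3841 and 2100 FPKM in KO 1 and KO 2, a factor of 0.547. When libraries were scaled to the B lineage list, the median change of all genes tested was 0.55 in place of -0.09, and on that scale the log2 changes of Cpa3, Mcpt8, Prss34 and Gata2 turned positive, at 0.49, 0.38, 0.56 and 0.60, near that median. None passed.

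The chymases and tryptases of tissue mast cells were at or near 0, and which cells the 10 genes came from was not tested. The chymase and tryptase genes Mcpt1, Mcpt4, Tpsab1 and Tpsg1 were listed at 0 in all 4 libraries, and Mcpt2, Cma1 and Tpsb2 at no more than 0.22 FPKM. Together these 7 genes had 0 and 3 fragments in the KO libraries, against 1 and 5 in the WT libraries. For Mcpt4, a count of 0 allows up to 0.171 and 0.179 FPKM in the KO libraries, against 0.171 and 0.165 FPKM in the WT libraries. Cd200r3, a receptor of basophils and mast cells, stood at 0.47 and 0.39 FPKM in the KO libraries, against 0.43 and 0.55 FPKM in the WT libraries. Kit, the stem cell factor receptor of mast cells and progenitors, stood at 6.09 and 8.73 FPKM in the KO libraries, against 6.38 and 5.24 FPKM in the WT libraries. Il1rl1, the interleukin 33 receptor of mast cells and basophils, stood at 1.43 and 2.0 FPKM in the KO libraries, against 3.41 and 1.87 FPKM in the WT libraries. The 7 chymase and tryptase genes were thus at or near 0, while Cpa3, Kit and Il1rl1, which other cells also use, were measured, and Mcpt8 and Prss34 stood at 21.60 FPKM or more in every library.

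Prg2 encodes major basic protein and Epx eosinophil peroxidase, both stored in eosinophil granules. Prg2 (ENSMUSG00000027073, chromosome 2, 84980461 to 84983632) measured 73.15 and 107.00 FPKM in the KO libraries, against 108.21 and 57.64 FPKM in the WT libraries. WT 1 and WT 2 were the highest and the lowest of all libraries, so both KO libraries lay between them. Means were 90.1 ± 23.9 FPKM in KO and 82.9 ± 35.8 FPKM in WT (SD, n = 2 each), and the log2 change was 0.16 ± 0.36 (95% interval -0.75 to 1.07, adjusted p = 0.830, limma). It was -0.29 without WT 2 and -0.11 without KO 2. Epx (ENSMUSG00000052234, chromosome 11, 87864000 to 87875536) measured 9.46 and 12.25 FPKM in the KO libraries, against 9.62 and 5.61 FPKM in the WT libraries. KO 1 and WT 1 were nearly equal and WT 2 was lowest, and the log2 change was 0.49 ± 0.27 (95% interval -0.21 to 1.19, adjusted p = 0.482, limma). The change of Epx was 0.15 without WT 2 and 0.83 without WT 1, and it did not pass in either. Prg2 and Epx thus differed within the WT pair in the same direction, WT 2 at 0.533 and 0.583 times WT 1, whereas for the basophil proteases WT 2 stood at 1.22 to 1.36 times WT 1.

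Other eosinophil genes varied in the same libraries to unequal extents. Prg3, the neighbouring homologue of Prg2, was nearly level at 6.05 and 6.55 FPKM in the KO libraries, against 6.07 and 5.84 FPKM in the WT libraries (log2 change 0.07 ± 0.14, adjusted p = 0.815, limma). Siglecf, a surface lectin of eosinophils, stood at 1.58 and 5.24 FPKM in the KO libraries, against 1.91 and 1.72 FPKM in the WT libraries, with KO 2 alone high (log2 change 0.51 ± 0.43, adjusted p = 0.592, limma). Without KO 1 the change of Siglecf was 1.15 (adjusted p = 0.0490) and without KO 2 it was -0.12. Ccr3, the eotaxin receptor, stood at 1.95 and 3.86 FPKM in the KO libraries, against 8.34 and 4.73 FPKM in the WT libraries (log2 change -0.95 ± 0.35, adjusted p = 0.386, limma). Both KO libraries lay below both WT libraries for Ccr3, which neither Prg2 nor Epx did. The eosinophil ribonuclease genes Ear1, Ear2 and Ear6 were chosen after their values were seen, and as near-identical copies they may share reads. Ear2 stood at 22.83 and 44.33 FPKM in the KO libraries, against 47.62 and 30.84 FPKM in the WT libraries. Ear6 stood at 2.40 and 6.16 FPKM in the KO libraries, against 4.96 and 2.58 FPKM in the WT libraries. For both, WT 1 exceeded WT 2 and KO 2 exceeded KO 1, the order that Prg2 showed. Erythroid markers summed to 492.4 and 836.4 FPKM in the KO libraries, against 1649 and 964.0 FPKM in the WT libraries, and 14 monocyte and macrophage markers to 302.5 and 558.3 FPKM in KO, against 458.8 and 300.2 FPKM in WT. These sums shared that order within each pair, as did those of the neutrophil, early precursor, stem and progenitor, megakaryocyte, T and NK cell and plasmacytoid dendritic cell lists, and their part in it was not tested.

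**Figure D4:**
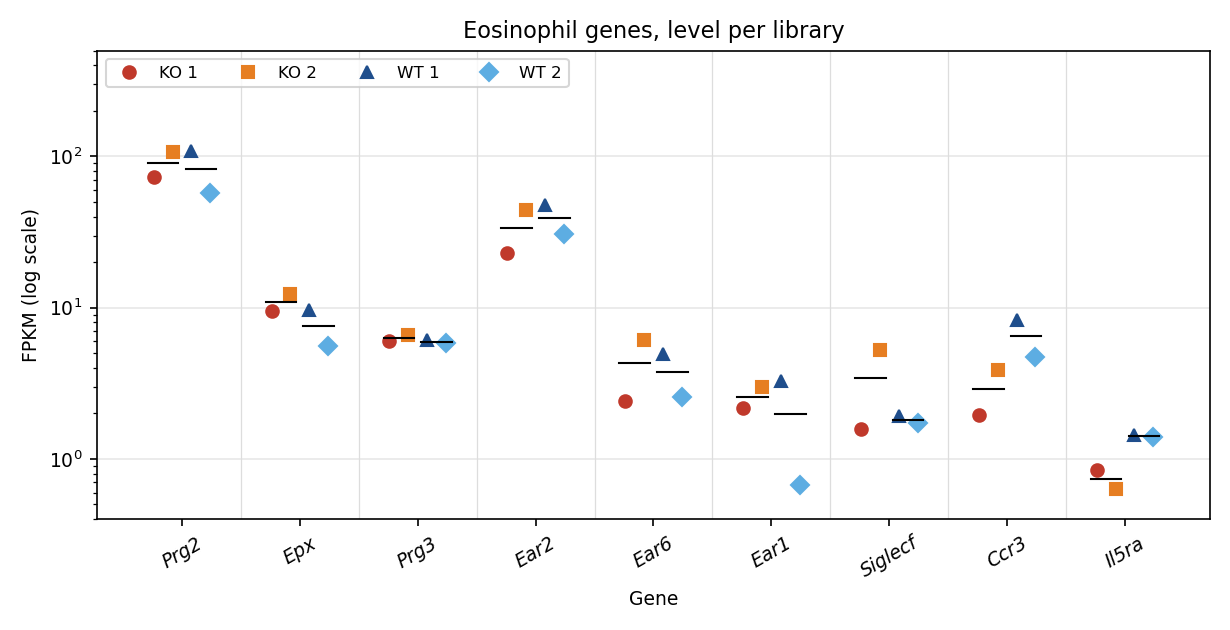
FPKM (log axis) of eosinophil genes in every library, with KO libraries left of WT libraries and a bar at each group's mean of 2 libraries. Prg2, Epx, Ear2, Ear6 and Ear1 are higher in WT 1 than in WT 2, Prg3 stays between 5.84 and 6.55 FPKM, and Siglecf stands out in KO 2 at 5.24 FPKM.

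Further genes of these lineages that are shared with other myeloid cells were counted by list, beside 38.3% positive and 19.7% with both KO libraries above both WT libraries among all genes tested. Of 23 other surface receptor genes 16 were tested, 13 were positive and 8 lay above both WT libraries in both KO libraries (median log2 change 0.53). Pirb, an inhibitory receptor of myeloid and B cells, stood at 40.04 and 60.13 FPKM in the KO libraries, against 23.38 and 22.56 FPKM in the WT libraries. Lilrb4a and Cd33, inhibitory receptors of myeloid cells, stood at 37.36 and 75.37 FPKM and at 23.40 and 36.50 FPKM in the KO libraries, against 19.67 and 27.85 FPKM and 17.22 and 18.15 FPKM in the WT libraries. Of 24 mediator genes 17 were tested, 13 were positive and 5 lay above both WT libraries in both KO libraries (median 0.29). In this list Alox5ap and Alox5, which together start leukotriene synthesis, stood at 201.88 and 303.89 FPKM and at 32.53 and 60.13 FPKM in the KO libraries, against 109.94 and 109.26 FPKM and 21.25 and 20.28 FPKM in the WT libraries. Osm and Tnf, cytokines that mast cells and other myeloid cells release, stood at 28.12 and 37.37 FPKM and at 7.93 and 14.24 FPKM in the KO libraries, against 9.61 and 15.66 FPKM and 4.86 and 6.91 FPKM in the WT libraries. Ltc4s, which makes the cysteinyl leukotrienes of mast cells, basophils and eosinophils, lay the other way at 0.68 and 0.59 FPKM in the KO libraries, against 1.56 and 0.78 FPKM in the WT libraries. Slc18a2, the vesicular transporter of histamine and serotonin, was level at 2.11 and 2.10 FPKM in the KO libraries, against 1.67 and 2.18 FPKM in the WT libraries. In these lists 0 genes passed in limma. At an unadjusted p under 0.05 there were 4 receptor genes and 3 mediator genes, against 12.5% of all genes tested.

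Granule and transcription factor genes outside the 10 held members on both sides too. Of 20 other granule genes 19 were matched and 12 tested, 10 were positive and 5 lay above both WT libraries in both KO libraries (median 0.33), and 0 passed in limma, also at an unadjusted p under 0.05. Ctsg, the cathepsin G of neutrophil precursors and mast cells, stood at 79.14 and 233.39 FPKM in the KO libraries, against 69.71 and 55.43 FPKM in the WT libraries. Serpinb1a, an inhibitor of granule proteases, stood at 105.15 and 211.61 FPKM in the KO libraries, against 92.49 and 84.37 FPKM in the WT libraries. Ndst2, which sulfates the heparin of mast cell granules, lay the other way at 8.90 and 8.52 FPKM in the KO libraries, against 10.58 and 9.98 FPKM in the WT libraries. Of 23 transcription factor genes 20 were tested, and 12 were positive (median 0.14). Both KO libraries lay above both WT libraries for 9 and below them for 4. In limma 0 passed (6 at an unadjusted p under 0.05). Beside the counts of these lists, 38.3% of all genes tested were positive. Of all genes tested, 19.7% lay above and 31.7% below both WT libraries in both KO libraries. In limma 12.5% of them had an unadjusted p under 0.05. Cebpe, a factor of neutrophil and eosinophil maturation, stood at 104.08 and 208.12 FPKM in the KO libraries, against 84.29 and 66.56 FPKM in the WT libraries. Cebpa, which specifies granulocytes, stood at 11.95 and 20.75 FPKM in the KO libraries, against 11.07 and 9.40 FPKM in the WT libraries. Cebpb, a factor of myeloid cells, stood at 67.91 and 124.51 FPKM in the KO libraries, against 44.01 and 37.42 FPKM in the WT libraries (log2 change 1.16 ± 0.31, adjusted p = 0.345, limma). Spi1, Nfe2 and Bcl6 had log2 changes of 0.76 ± 0.24, 0.81 ± 0.29 and 0.58 ± 0.18 (adjusted p = 0.370, 0.385 and 0.370, limma). They and Cebpb were named for having the smallest p of this list, so that both KO libraries lay above both WT libraries is no separate result. Mitf, the mast cell and melanocyte factor, did not pass the filter, at 0.48 and 1.12 FPKM in the KO libraries, against 0.55 and 0.62 FPKM in the WT libraries.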

How the data were processed

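RNA from sorted bone marrow B cells was sequenced in 2 libraries labelled ADAR1 KO and 2 wild type libraries. Per the file headers, the authors deposited FPKM values (fragments scaled by exon length and library total), in 1 table per library. The build named is mm9, per the submitters' processing notes. The sources used here do not name the aligner, counter or annotation, nor say whether strand was used. Of 55573 Ensembl identifiers, 55480 had a symbol and a union exon length in GENCODE M21, an annotation of GRCm38, whose coordinates are used here. Multiplied by that length, FPKM values fell on whole fragments (within 0.15, where chance gives 30%) in at least 99.4% of the values checked in each library. Those steps gave the depths and the fragments per gene stated here, which cover counting error only.

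Limma (version 3.58.1, R 4.3.3) with a mean-variance trend was fitted to log2(FPKM + 1) for the 13281 genes that averaged 1 FPKM or more in KO or in WT, with no covariate and Benjamini-Hochberg adjustment at 0.05. The fit was also run on simulated data with a fixed dispersion and no shift in cell composition. That run checks the code and cannot show how well the fit suits these libraries. Log2 changes are KO minus WT and understate the change of low genes. Alternatives were a pseudocount of 0.1, no filter, a filter at 5 FPKM, each library left out, a replicate block, quantile normalization, median centring, scaling to B lineage genes and limma-voom on estimated fragments. A crossed block was added after seeing the data. The members and lists were chosen with earlier results of these data known, so lists carry no test. Genes named besides the members are up to 4 genes with the smallest p of each of 6 lists and a set of defining markers, with Adar as a check, Mcpt1, Mcpt2, Tpsab1 and Tpsg1 as the rest of the mast cell protease list, and the Ear genes as an exception stated in the text. Promoter sequences are from RefSeq (GRCm38.p6). Some genes that the rule names are not reported here.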

Additional observations from a re-analysis of the deposited data

How the results depend on the processing

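The 10 genes had 127 alternative values, of which 2 passed the threshold and 13 changed sign. The 39 other named genes had 500, of which 16 passed and 10 changed sign. Over all genes, 27 passed as reported, 15 with a pseudocount of 0.1, 0 with no filter (2257 at an unadjusted p under 0.05), 69 with B lineage scaling and 9 with limma-voom, and 0 to 948 with 1 library left out (14 without WT 1, 948 without KO 1, 0 without KO 2). Stricter filtering, quantile normalization and median centring gave 35, 26 and 24. The shared replicate numbers were not shown to pair the libraries: deviations of WT 1 and KO 1 from their group means had a correlation of -0.149 over 13281 genes. With the replicate block 68 genes passed (7 higher, 61 lower) and none of the 10, and with the crossed block 213 passed (46 higher, 167 lower), again none of the 10 but 1 other named gene, Socs3. Leaving out 1 library in turn gave log2 changes of 0.83 to 1.54 for Hdc, -0.35 to 0.045 for Cpa3, -0.43 to 0.27 for Prss34, -0.24 to 0.17 for Gata2, -0.29 to 0.61 for Prg2, 0.55 to 1.61 for Csf2rb, -0.44 to -0.072 for Mcpt8, 0.27 to 0.48 for Fcer1a, 0.054 to 0.34 for Ms4a2 and 0.15 to 0.83 for Epx. Among other genes it gave -0.40 to 0.087 for Pf4, -0.021 to 0.17 for Cd34, -0.12 to 1.15 for Siglecf and -0.034 to 0.22 for Slc18a2. The log2 change of Gata2 was 0.035 with quantile normalization and 0.031 with median centring. B lineage scaling gave 0.49 for Cpa3, 0.38 for Mcpt8, 0.56 for Prss34, 0.60 for Gata2, 0.36 for Btk, 0.16 for Il5ra, 0.42 for Ndst2, 0.48 for Pf4, 0.24 for Il1rl1 and 0.26 for Ltc4s, where the median of all genes became 0.55.

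The log2 ratio of summed FPKM, KO over WT, is given first as deposited and then with B lineage scaling. It was 0.28 and 1.05 for the 10 genes, 0.28 and 1.06 for IgE receptor signalling, 0.54 and 1.31 for cytokine receptors and kinases, 0.84 and 1.69 for other surface receptors, 0.52 and 1.37 for other granule proteins and 0.99 and 1.83 for mediators. It was also 0.25 and 1.02 for transcription factors, -0.68 and -0.10 for B lineage identity genes, 1.03 and 1.92 for neutrophil markers, 1.03 and 1.97 for early granulocyte and monocyte precursors, 0.18 and 1.04 for monocyte and macrophage markers and 0.11 and 0.91 for megakaryocyte and platelet markers, and -0.98 and -0.14 for erythroid genes, 0.01 and 0.83 for stem and progenitor cell markers, -0.82 and -0.19 for plasma cell markers, 0.27 and 1.00 for plasmacytoid dendritic cell markers and 0.59 and 1.41 for T and NK cell markers. With 1 library left out the same ratio spanned 0.16 to 0.39 for the 10 genes, 0.12 to 0.42 for IgE receptor signalling, 0.42 to 0.64 for cytokine receptors and kinases, 0.42 to 1.16 for other surface receptors, 0.045 to 0.87 for other granule proteins and 0.66 to 1.26 for mediators, then 0.12 to 0.36 for transcription factors, -1.18 to -0.31 for B lineage identity genes, 0.44 to 1.44 for neutrophil markers, 0.17 to 1.57 for early granulocyte and monocyte precursors, -0.33 to 0.56 for monocyte and macrophage markers and -0.13 to 0.31 for megakaryocyte and platelet markers, and -1.41 to -0.54 for erythroid genes, -0.31 to 0.28 for stem and progenitor cell markers, -1.16 to -0.55 for plasma cell markers, 0.20 to 0.34 for plasmacytoid dendritic cell markers and 0.27 to 0.85 for T and NK cell markers.

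The cause of these shifts was not tested. Fragment counts limit Fcer1a most, with 42 to 65 per library, and the 2 libraries per group limit every test.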

Other observations

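Markers of further marrow cells were summed in the same libraries. The 9 plasmacytoid dendritic cell markers summed to 351 and 355 FPKM in the KO libraries, against 308 and 278 FPKM in the WT libraries. Both KO libraries lay above both WT libraries for 7 of the 9, where 19.7% of all genes tested did. The 14 T and NK cell markers summed to 101 and 150 FPKM in KO, against 90.0 and 76.3 FPKM in WT. The 13 stem and progenitor cell markers summed to 69.1 and 104 FPKM in KO, against 98.7 and 72.3 FPKM in WT, and the 12 megakaryocyte and platelet markers to 107 and 146 FPKM in KO, against 125 and 111 FPKM in WT. The 9 plasma cell markers summed to 225 and 148 FPKM in KO, against 326 and 332 FPKM in WT. Jchain, whose values follow, is part of these sums and of the summed ratios above, and it accounts for much of the difference. Of the 8 markers tested, 7 had negative log2 changes. Both KO libraries lay below both WT libraries for 5, where 31.7% of all genes tested did. Jchain, the joining chain of secreted IgM and IgA, was the 1 gene of all these lists past the threshold and was chosen after its values were seen. It stood at 0.25 and 0.45 FPKM in the KO libraries, against 105.85 and 91.45 FPKM in the WT libraries (log2 change -6.21 ± 0.16, adjusted p = 0.00135, limma). With no filter on low values, and without KO 2, 0 genes passed in limma (2257 and 1969 at an unadjusted p under 0.05), so Jchain did not pass there.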
